A study of Mus musculus with 9 samples.

Results

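Ferritin and iron handling were examined through 10 genes, taken by symbol from the 31053 genes of the deposited matrix: *Ftl1*, *Ftl1-ps1*, *Fth1*, *Tfrc*, *Slc11a1*, *Slc25a37*, *Hmox1*, *Blvrb*, *Slc40a1*, and *Ireb2*. All 10 were found, and they were chosen with earlier results of these data known. *Ftl1* and *Ftl1-ps1*, which are nearly identical in sequence, were also read as a sum. The data were single cell RNA libraries of femur bone marrow from female mice at 9 to 10 weeks of age, 1 library per mouse and 3 mice per strain. NZB (New Zealand Black) and NZW (New Zealand White) were the parents of the F1 hybrid NZBWF1, a strain used as a model of systemic lupus erythematosus. No treatment is named in the labels, and red cells had been lysed before the libraries were made. Mice are the replicates, and p-values of strain comparisons measure the spread between mice of a strain. The exception is the comparison of the hybrid with sums of an NZB and an NZW mouse, whose spread pools that of the hybrid mice with that of the sums. Comparisons of classes, or of dividing with non-dividing cells, were made within mice, with the strains pooled.

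Ferritin is a hollow protein shell that stores iron. It is built from heavy chains (*Fth1*), which oxidize iron as it enters, and light chains (*Ftl1*), which help the iron core to form. Cells take up transferrin-bound iron through the transferrin receptor (*Tfrc*), and macrophages of the marrow also gain iron from the red cells that they engulf. Haem oxygenase 1 (*Hmox1*) opens the haem ring and frees its iron, biliverdin reductase B (*Blvrb*) reduces flavins and some forms of biliverdin, and ferroportin (*Slc40a1*) exports iron from the cell. *Slc11a1* moves metal ions out of the phagosome, and mitoferrin 1 (*Slc25a37*) carries iron into the mitochondria of developing red cells. *Ireb2* encodes an iron regulatory protein that binds hairpins in messenger RNA when iron is scarce, which blocks translation from the 5′ end and protects the message at the 3′ end.

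The sequences behind the counts are shown first, because the transcripts of *Ftl1* and *Ftl1-ps1* differ little where they align. All sequences and positions are from GENCODE vM21 on build GRCm38. *Ftl1* (ENSMUSG00000050708) lies on the minus strand at chr7:45457944-45459884, and its transcript has 4 exons. *Ftl1-ps1* (ENSMUSG00000062382) lies on the plus strand at chr13:74399694-74407346 and is annotated as protein coding, with a transcript of 1 exon. The other members lie at chr19:9980598-9985098 (*Fth1*, plus strand), chr16:32608920-32632794 (*Tfrc*, plus), chr1:74375195-74386062 (*Slc11a1*, plus), chr14:69241848-69285112 (*Slc25a37*, minus), chr8:75093621-75100589 (*Hmox1*, plus), chr7:27447978-27466144 (*Blvrb*, plus), chr1:45908068-45926523 (*Slc40a1*, minus), and chr9:54863789-54912530 (*Ireb2*, plus). The transcripts of 968 and 938 bases could be aligned over 910 bases, of which 4 differed (99.56% identity). With positions counted from 1 at the first base of the *Ftl1* transcript, the differences were A196G in the 5′ UTR, G721A and G757A in the coding sequence, and A817G in the 3′ UTR. The last 3 lay 247, 211, and 151 bases from the 3′ end of the *Ftl1* transcript, and the libraries count 3′ ends. The end of each coding sequence, up to its last codon before the stop, is given below (chr7:45458110-45458236, minus strand, and chr13:74407026-74407152, plus strand), with the differing bases in capitals.
Ftl1 coding end: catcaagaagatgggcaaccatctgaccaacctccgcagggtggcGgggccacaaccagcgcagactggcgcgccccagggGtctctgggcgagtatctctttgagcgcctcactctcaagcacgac
Ftl1-ps1 coding end: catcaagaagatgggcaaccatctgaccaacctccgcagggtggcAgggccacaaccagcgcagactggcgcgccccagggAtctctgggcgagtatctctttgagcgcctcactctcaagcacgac
The difference in the 3′ UTR is shown in the middle of a window of 25 bases whose first base is the last of the stop codon (chr7:45458083-45458107, minus strand, and chr13:74407155-74407179, plus strand).
Ftl1 3′ UTR: ggaggcctctgtAccttccaagggg
Ftl1-ps1 3′ UTR: ggaggcctctgtGccttccaagggg
Between these bases the longest stretch without a difference was 524 bases, and 151 bases follow the last difference. The annotated 3′ UTR has 163 bases in *Ftl1* and 191 in *Ftl1-ps1*, so the end of the *Ftl1-ps1* transcript runs past the aligned stretch. The counts hold no read sequence, so the assignment of UMIs (unique molecular identifiers, 1 per captured RNA molecule) to either gene was not tested, and the split between them is uncertain. Reads may also be lost between the pair, so their sum may miss UMIs. Whether such a loss differed between strains was not tested.

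The iron-responsive hairpins tie the storage, uptake, and export genes together, and are shown for that reason. The letters CNNNNNCAGTGN were searched on the sense strand of the annotated UTRs, with the 5 bases after the loop required to pair with the 5 bases before it (G-T pairs allowed, and no G as the last base of the loop). Of the members, 4 had 1 match each in the 5′ UTR (*Fth1*, *Ftl1*, *Ftl1-ps1*, and *Slc40a1*), and *Tfrc* had 4 matches in its 3′ UTR. Among all genes, 17 of 19962 had a match in the 5′ UTR (0.0852%) and 84 of 20577 in the 3′ UTR (0.408%). Each match is printed 5′ to 3′, with the bulged C and the CAGTGN loop in capitals.
Fth1 5′ UTR, chr19:9982732-9982760, plus strand: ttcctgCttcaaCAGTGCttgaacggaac
Ftl1 5′ UTR, chr7:45459779-45459807, minus strand: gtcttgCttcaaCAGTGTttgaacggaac
Ftl1-ps1 5′ UTR, chr13:74406428-74406456, plus strand: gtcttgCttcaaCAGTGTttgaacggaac
Slc40a1 5′ UTR, chr1:45925465-45925493, minus strand: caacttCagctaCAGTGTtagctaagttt
Tfrc 3′ UTR 1, chr16:32631219-32631247, plus strand: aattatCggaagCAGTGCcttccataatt
Tfrc 3′ UTR 2, chr16:32631598-32631626, plus strand: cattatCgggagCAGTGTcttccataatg
Tfrc 3′ UTR 3, chr16:32631663-32631691, plus strand: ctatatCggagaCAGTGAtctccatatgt
Tfrc 3′ UTR 4, chr16:32631710-32631738, plus strand: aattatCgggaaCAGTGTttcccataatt
The hairpins of *Ftl1* and *Ftl1-ps1* were the same in all 29 bases. A match is a description of the reference sequence and says nothing of protein binding, and no match was found in *Hmox1*, *Blvrb*, *Slc11a1*, *Slc25a37*, or *Ireb2*.

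Of 68444 barcodes that Cell Ranger had called as cells, 39051 held at least 1000 UMIs and 500 genes and at most 10% mitochondrial UMIs, and 38424 were kept after 627 with a barcode shared between libraries were left out. Marker genes, none of them a member, placed 32382 cells in 17 classes, which are named after their marker lists since no protein was measured. The megakaryocyte class was too small to test, which left 16 classes, and a mouse with fewer than 10 cells of a class was left out of that class. In all 16 the top 10 genes by fold held more markers of the class than of other classes, by 4 to 3 in mature B cells and by 2 to 1 in erythroblasts. UMIs in classed cells came to between 6988893 and 15114345 per mouse. Levels are given in CPM, the UMIs of a gene as a share of all UMIs of the class and mouse, on the usual CPM scale. In such sums fewer expressing cells and less RNA per cell cannot be told apart. Counts of the members were high enough in 103 combinations of gene and class to be tested.

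Ferritin light chain UMIs were assigned almost wholly to *Ftl1* in NZB, almost wholly to *Ftl1-ps1* in NZW, and to both in NZBWF1. Over all classed cells, *Ftl1* stood at 2892, 2434, and 2398 CPM in the 3 NZB mice. The 3 NZW mice held 60.9, 73.1, and 82.6 CPM of *Ftl1*, and the 3 NZBWF1 mice 1151, 1188, and 1223 CPM. The strains did not overlap, and the hybrid lay between its parents in all 3 mice. *Ftl1-ps1* showed the reverse order, with 14.3, 12.4, and 11.0 CPM in NZB, 1911, 1868, and 1927 CPM in NZW, and 934, 975, and 1061 CPM in NZBWF1. In these values, too, the strains did not overlap.

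The share of the pair's UMIs that went to *Ftl1* was 99.5% in each NZB mouse, with exact binomial 95% intervals between 99.4% and 99.6%. It was 3.09%, 3.77%, and 4.11% in the NZW mice (intervals from 2.87% to 4.35%). In NZBWF1 it came to 55.2%, 54.9%, and 53.5% (intervals from 53.0% to 56.0%), close to an equal split and slightly on the *Ftl1* side in all 3 mice. These intervals cover counting error only.

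**Figure D1:**
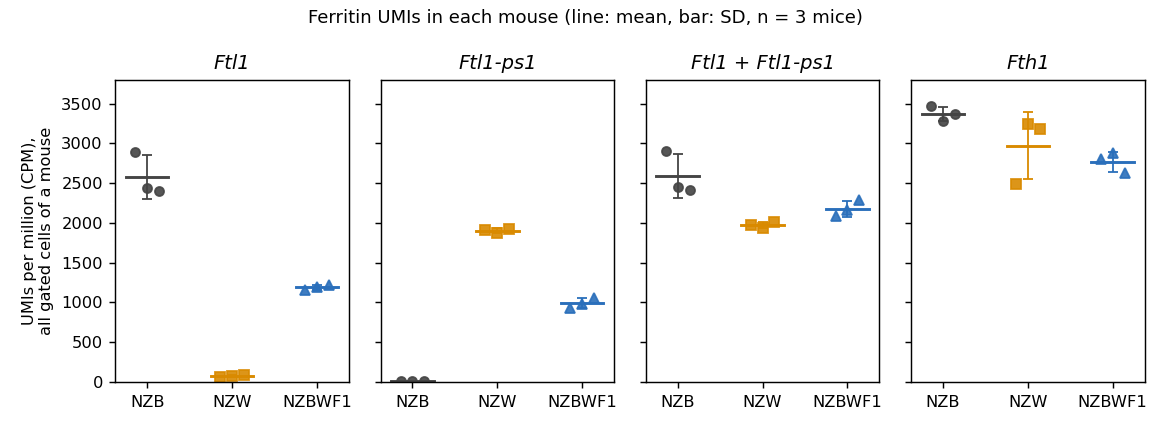
Level in CPM over all classed cells of each mouse for *Ftl1*, *Ftl1-ps1*, their sum, and *Fth1*, with 1 point per mouse, a line at the mean and a bar of 1 SD (n = 3 mice per strain). *Ftl1* is near 0 in NZW and *Ftl1-ps1* near 0 in NZB, NZBWF1 lies between them, and the sum lies between 1941 and 2906 in all 9 mice. The classes are pooled in the shares found in each mouse, which differed between strains.

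In each of the 16 classes the order of the strains was the same, and whether the share differed between classes was not tested. The mean share of *Ftl1* by class ran from 98.7% (conventional dendritic cells) to 99.7% (T cells) in NZB, and from 2.51% (basophils or mast cells) to 4.57% (B-cell precursors) in NZW. Among NZBWF1 mice it ran from 46.5% in T cells to 58.3% in basophils or mast cells, with a median over classes of 54.7%.

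**Figure D2:**
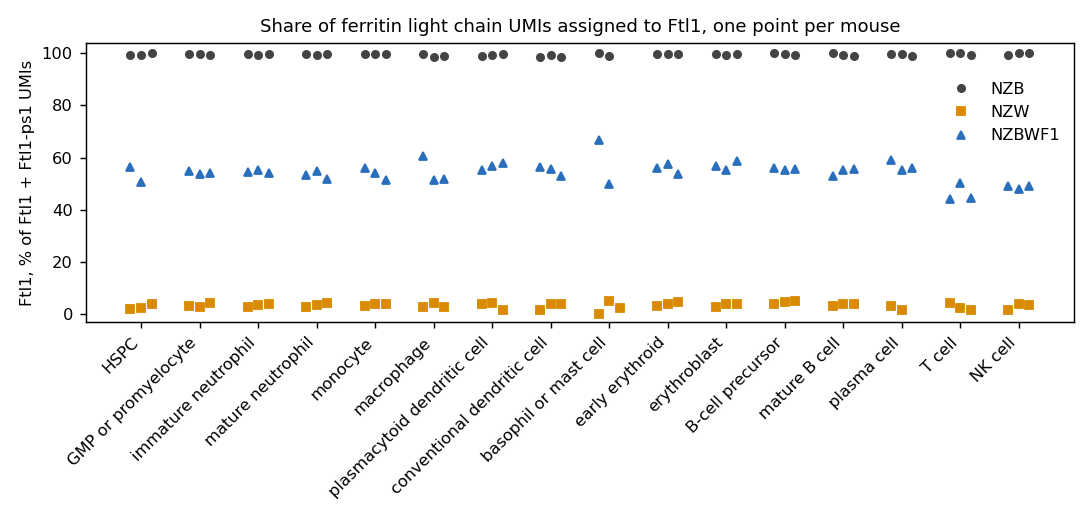
Percent of the UMIs of *Ftl1* and *Ftl1-ps1* that were assigned to *Ftl1*, by class, with 1 point per mouse and symbols for the strains. NZB points lie at or above 98.4%, NZW points at or below 5.08%, and NZBWF1 points between 44.2% and 66.7%.

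UMIs of both genes were found together in single cells of the hybrid, in shares that differed between classes of unequal depth. Of 1660 NZBWF1 monocytes, which had a median of 1872 UMIs, 96.4% held at least 1 UMI of each gene, and 82.7% did so after every cell was thinned to 1000 UMIs. Macrophages had 100% (91.7% thinned, median 2255.5 UMIs), but mature B cells 38.7% (23.2% thinned, median 1321 UMIs), NK cells 35.5% (17.7% thinned, median 1496 UMIs), and T cells 34.0% (19.4% thinned, median 1348 UMIs). The background of such cells was 6.55% of 1160 NZB monocytes (2.67% thinned, median 2794.5 UMIs) and 28.3% of 1992 NZW monocytes (14.2% thinned, median 1920.0 UMIs). In macrophages it was 18.2% of 44 NZB cells (13.6% thinned, median 2734.5 UMIs) and 46.9% of 81 NZW cells (23.5% thinned, median 2026 UMIs). In mature B, NK, and T cells it was 1.84%, 0.671%, and 0.559% in NZB (1.38%, 0%, and 0% thinned) and 6.79%, 5.59%, and 2.76% in NZW (4.42%, 3.91%, and 0% thinned). Free RNA was estimated to make up 0.246% to 0.914% of the UMIs of a cell, from granulocyte genes in lymphocytes and the make-up of barcodes under 100 UMIs. In that free RNA *Ftl1-ps1* stood at 22.8, 129, and 19.5 CPM in the NZB mice, and *Ftl1* at 75.1, 102, and 107 CPM in the NZW mice.

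Strains were compared class by class with the edgeR quasi-likelihood test on UMIs summed per mouse, with Benjamini-Hochberg adjustment over all genes of the class. For this test the totals of the mice were rescaled (TMM), while the CPM are not rescaled. A fold change can therefore differ from the ratio of the CPM. Over all genes and classes, 4.25% of 77292 tests were called higher in NZB than in NZW and 4.31% lower. The members were called in 46 tests, 26 higher and 20 lower. *Ftl1* was higher in NZB in all 16 classes, by 4.05 (macrophages) to 5.78 (plasmacytoid dendritic cells) on the log2 scale. *Ftl1-ps1* was lower in NZB in all 16, by 6.02 to 7.53 on the log2 scale in the 10 classes where NZB held more than 3 UMIs of it. In the other 6 classes NZB held 1 to 3 UMIs in all, and against a floor of 3 UMIs over the strain *Ftl1-ps1* was 35.1- to 241-fold lower, values that rest on that floor. DESeq2 called the pair in the same 16 classes each.

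Against NZB, 1.93% of all tests were called higher in NZBWF1 and 2.03% lower, and against NZW 0.567% higher and 0.436% lower. *Ftl1-ps1* rose against NZB in 16 of 16 classes, by 5.33 to 6.63 on the log2 scale in the 10 classes with more than 3 NZB UMIs. *Ftl1* fell against NZB in 12 of 16 classes, by 0.77 to 1.30 on the log2 scale, and the classes without a call were HSPC, macrophages, conventional dendritic cells, and NK cells. Against NZW, *Ftl1* rose in 16 of 16 classes (3.78 to 4.79), and *Ftl1-ps1* fell in 12 of 16 (by 0.69 to 1.09 on the log2 scale). No call of NZBWF1 above the parent with little of the gene was lost when a mouse was left out, although that of *Ftl1* against NZW in T cells was at 5% mitochondrial UMIs (edgeR adjusted p = 0.0714) and that of *Ftl1-ps1* against NZB in macrophages with 1 more marker per class (edgeR adjusted p = 0.106). The falls against the other parent were lost for *Ftl1* in basophils or mast cells (without NZB-3 or NZBWF1-3), erythroblasts (NZBWF1-1), and plasma cells (NZB-1, NZB-2, NZBWF1-2, or NZBWF1-3), with adjusted p in these classes of up to 0.376 over the alternatives (edgeR or DESeq2). For *Ftl1-ps1* they were lost in NK cells (NZBWF1-2, NZW-2, or NZW-3), T cells (NZBWF1-2, NZBWF1-3, or NZW-3), basophils or mast cells (NZBWF1-2, NZBWF1-3, or NZW-2), and plasma cells (NZB-1, NZBWF1-2, NZBWF1-3, NZW-2, or NZW-3), with edgeR adjusted p in these classes of up to 0.860. The fall of *Ftl1* in T cells was lost at 5% mitochondrial UMIs (edgeR adjusted p = 0.545). Those of *Ftl1* in mature B cells and of *Ftl1-ps1* in mature B cells and plasmacytoid dendritic cells were lost both at 5% mitochondrial UMIs (edgeR adjusted p = 0.590, 0.346, and 0.619) and at 2000 UMIs and 1000 genes, where none of the 3 had an adjusted p under 0.05.

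The study set the hybrid against the mean of the parents' logs. On that scale *Ftl1* was called higher in NZBWF1 in 16 of 16 classes (by at least 1.32) and *Ftl1-ps1* in 16 of 16 (2.32 to 2.94 in the 10 classes with more than 3 NZB UMIs), against 15 each by DESeq2, which lost both in basophils or mast cells. In that class the call of *Ftl1* was also lost with 1 more marker per class and without NZBWF1-2, and that of *Ftl1-ps1* without NZBWF1-3. In macrophages both were lost with 1 more marker per class, and *Ftl1-ps1* also without NZB-3 (edgeR adjusted p of up to 0.0824 and 0.677). In T cells *Ftl1* was lost at 5% mitochondrial UMIs (edgeR adjusted p = 0.620). Over all genes 0.471% of tests were called higher and 0.22% lower. The mean of logs is a geometric mean, which falls far below the midpoint where a parent is near 0, so the hybrid was also set against the arithmetic mid-parent, made by adding an NZB and an NZW mouse thinned to equal totals. Against it 0.151% of 77551 tests were called higher and 0.298% lower. *Ftl1* then had a median difference over classes of -0.06 and *Ftl1-ps1* of 0.04 on the log2 scale, beside a median of 0.00 over all genes. The calls left were *Ftl1* in HSPC (0.62, edgeR adjusted p = 0.0133) and in macrophages (0.80, edgeR adjusted p = 0.000752), and 0 of 16 for *Ftl1-ps1* (3 at an unadjusted p under 0.05, 0 by DESeq2). Both calls of *Ftl1* were lost under DESeq2, with 1 more marker per class, at 2000 UMIs and 1000 genes, and with 1 of the other pairings of parents. That in HSPC was also lost without any NZB or NZW mouse, and that in macrophages without NZB-2, NZW-2, or NZBWF1-3, with edgeR adjusted p of up to 0.783 and 0.999 over the alternatives.

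Read as a sum of the UMIs assigned to either gene, the light chain moved far less than each gene alone. Over all classed cells the sum was 2906, 2446, and 2409 CPM in NZB, 1972, 1941, and 2009 CPM in NZW, and 2085, 2163, and 2284 CPM in NZBWF1. Every NZB mouse lay above every mouse of the other strains, and the NZBWF1 mice lay above the NZW mice. These pooled values also depend on the make-up of the classes, which differed between strains. B-cell precursors, for example, numbered 62, 133, and 111 in NZB, 515, 521, and 498 in NZW, and 341, 551, and 733 in NZBWF1. The part of this make-up in the pooled values was not tested. By class, the mean of NZBWF1 lay between the parents in 11 of 16 classes, above both in 5, and below both in 0. Against the mean of the parents' logs, edgeR called the sum in 0 of 16 classes (3 at an unadjusted p under 0.05, and 0 by DESeq2), where it had called both single genes in all 16.

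Between the parents the sum was called in 5 classes. Plasmacytoid dendritic cells held 2865, 2565, and 2501 CPM in NZB, 1490.1, 1490.4, and 1382 CPM in NZW, and 2011, 1925, and 1988 CPM in NZBWF1, which are 3 separate groups. NZB exceeded NZW there by 0.91 ± 0.10 (log2 fold change ± SE, edgeR adjusted p = 2.42e-11). Monocytes showed 6420, 5159, and 6138 CPM in NZB against 4264, 4042, and 3855 CPM in NZW, with NZBWF1 at 5083, 4813, and 5521 CPM and the parents apart (0.55 ± 0.10, edgeR adjusted p = 3.42e-05). These were the calls of the sum that held under every alternative run. The sum was also higher in NZB in immature neutrophils (0.55 ± 0.13, edgeR adjusted p = 0.00384) and in GMP or promyelocytes (0.41 ± 0.12, edgeR adjusted p = 0.0105). The call in GMP or promyelocytes was lost without NZB-1, NZW-2, or NZW-3 (adjusted p of up to 0.126), and that in immature neutrophils at limits of 2000 UMIs and 1000 genes (0.0545).

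In macrophages the sum stood at 8126, 7251, and 6252 CPM in NZB, 15859, 12246, and 9197 CPM in NZW, and 10839, 12205, and 14810.3 CPM in NZBWF1. The log2 difference of NZB from NZW in macrophages minus that in monocytes was -1.30 ± 0.49 (limma, unadjusted p = 0.0209, adjusted p = 0.606) and was not called. All NZB mice lay below all others, and NZW and NZBWF1 overlapped. NZB was lower than NZW by 0.84 on the log2 scale (SE 0.22, edgeR adjusted p = 0.0354), a call lost in 10 of 20 alternatives (adjusted p of up to 0.897), among them the limits of 2000 UMIs and of 5% mitochondrial UMIs and leaving out NZB-2, NZB-3, NZW-1, NZW-2, NZBWF1-2, or NZBWF1-3. The class rests on 11 to 48 cells per mouse. Its own macrophage markers also stood lower in NZB (7317 to 8009 CPM in sum) than in NZW (11916 to 16345 CPM), with 7801 to 11796 CPM in NZBWF1, and immature neutrophil markers were present at 12679 to 45257 CPM over the 9 mice. The 9 erythroblast markers, all detected over the class, summed to 0, 38.4, and 79.8 CPM in the NZB mice, 440, 198, and 78.1 CPM in the NZW mice, and 52.8 to 167 CPM in NZBWF1. Monocyte markers summed to 671 to 1490 CPM in NZB, 937 to 2063 CPM in NZW, and 1372 to 2178 CPM in NZBWF1. The part of any of these in the macrophage differences of the sum, *Fth1*, or *Slc40a1* was not tested.

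Against its parents the sum in NZBWF1 was lower than in NZB in plasmacytoid dendritic cells (fell by 0.44 on the log2 scale, SE 0.09, edgeR adjusted p = 0.00157) and in GMP or promyelocytes (fell by 0.43, SE 0.12, edgeR adjusted p = 0.0232). It was higher than in NZW in plasmacytoid dendritic cells (0.47 ± 0.10, edgeR adjusted p = 0.00182). The strains followed the order NZB, NZBWF1, NZW in plasmacytoid dendritic cells, with each step called, although at 2000 UMIs and 1000 genes both steps of the hybrid were lost (adjusted p of up to 0.854), and the step above NZW also at 5% mitochondrial UMIs. Against the arithmetic mid-parent the sum was called in HSPC alone (0.50 ± 0.12, edgeR adjusted p = 0.00618), on 2 NZBWF1 mice of 1555 and 1846 CPM, and this was lost by DESeq2 and when any NZB or NZW mouse was left out (adjusted p of up to 0.348). The call in GMP or promyelocytes against NZB was lost without NZB-1, NZB-2, NZBWF1-1, or NZBWF1-2 (adjusted p of up to 0.196).

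*Fth1*, the heavy chain, had its highest level in erythroblasts, with a mean of 11407 CPM over 9 mice. Plasmacytoid dendritic cells (7282 CPM), macrophages (7198 CPM), and early erythroid cells (5876 CPM) followed, with no called step among these. Erythroblasts were above plasmacytoid dendritic cells in 9 of 9 mice (mean log2 difference 0.68, SD 0.36, adjusted p = 0.0255, exact sign-flip permutation, two-sided, on log2(CPM + 10)), and early erythroid cells were above conventional dendritic cells (4006 CPM) in 9 of 9. Called steps between classes, 28 over all members, became 0 at 2000 UMIs and 1000 genes and without any 1 mouse other than NZB-1 (26 without it). No such steps were tested over all genes, so no share stands beside this count, and nothing particular to the members is read from it. The classes were ranked by the same levels that the steps compare. With 8 mice the exact permutation p cannot go below 0.0078. A step at that value passes the adjustment only where many other steps reach such values too, as they did without NZB-1. The counts of 0 without another mouse therefore do not show that the levels were alike. The lowest level was in plasma cells, at 549 CPM.

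**Figure D3:**
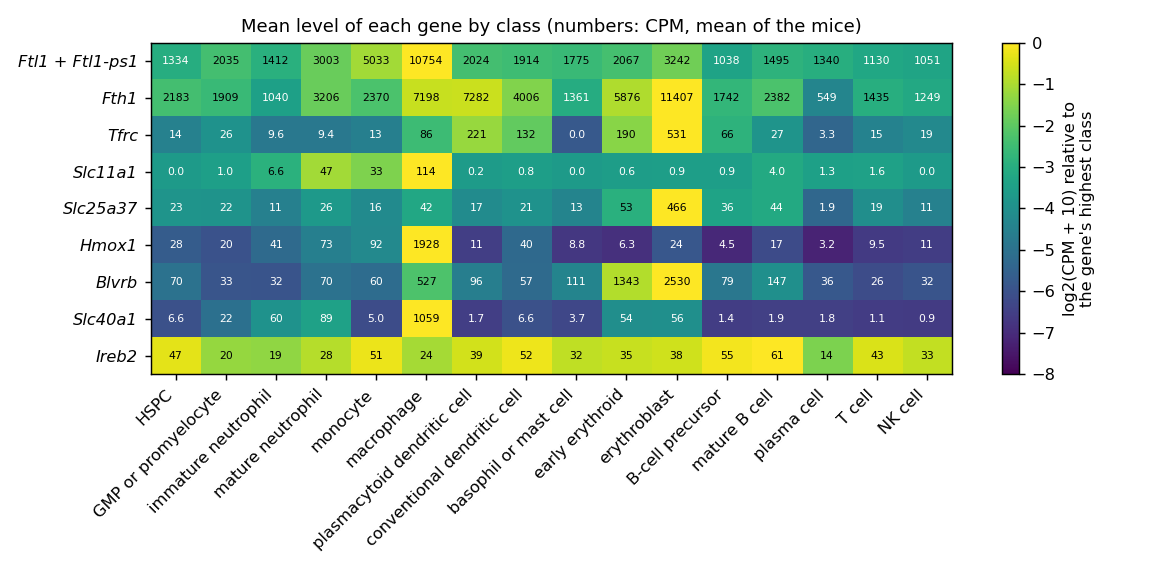
Mean level over mice of each gene (rows) in each class (columns), with the CPM printed and the colour giving log2(CPM + 10) relative to the highest class of the gene. Macrophages are highest for the light chain sum, *Slc11a1*, *Hmox1*, and *Slc40a1*, and erythroblasts for *Fth1*, *Tfrc*, *Slc25a37*, and *Blvrb*.

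Between the parents *Fth1* was called in 6 of 16 classes, 5 higher in NZB and 1 lower. In plasmacytoid dendritic cells NZB stood at 9611, 8595, and 9594 CPM, NZW at 5236, 5855, and 4703 CPM, and NZBWF1 at 7658, 7047, and 7237 CPM, again with 3 separate groups (0.86 ± 0.09 for NZB against NZW, edgeR adjusted p = 2.61e-12). The hybrid was below NZB there (fell by 0.36 on the log2 scale, SE 0.09, edgeR adjusted p = 0.00706) and above NZW (0.50 ± 0.09, edgeR adjusted p = 5.59e-05). In monocytes *Fth1* read 2718, 2775, and 3249.7 CPM in NZB, 1829, 1799, and 1875 CPM in NZW, and 2359, 2311, and 2414 CPM in NZBWF1. This difference, 0.68 ± 0.09 (edgeR adjusted p = 5.41e-07), held under every alternative run, and the hybrid was below NZB (fell by 0.34, SE 0.09, edgeR adjusted p = 0.00872). At limits of 2000 UMIs and 1000 genes the calls in plasmacytoid dendritic cells were lost (adjusted p of up to 0.579 between the parents), and the hybrid's calls against NZB were lost without NZB-3 or NZBWF1-2 in either class, and without NZB-1 in plasmacytoid dendritic cells (adjusted p of up to 0.988).

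*Fth1* was also higher in NZB than in NZW in mature neutrophils (0.69 ± 0.18, edgeR adjusted p = 0.0285), immature neutrophils (0.44 ± 0.11, edgeR adjusted p = 0.00484), and GMP or promyelocytes (0.38 ± 0.11, edgeR adjusted p = 0.0116). Mean CPM in NZB and NZW were 3584 and 2713 in mature neutrophils and 1106 and 909 in immature neutrophils. In these 2 classes the CPM lie closer together than the rescaled folds. In GMP or promyelocytes the values were 2233, 2258, and 2265 CPM in NZB and 1645, 1642, and 1573 CPM in NZW, with no overlap. Leaving out NZW-2 ended the call in immature neutrophils, NZB-2 or NZW-3 that in GMP or promyelocytes, and NZB-1, NZB-3, NZW-2, or NZW-3 that in mature neutrophils, as did limits of 2000 UMIs and 1000 genes (adjusted p of up to 0.0538, 0.0572, and 0.133). In macrophages the values were 5676, 5371, and 4337 CPM in NZB, 9569, 9627, and 6595 CPM in NZW, and 7406, 7823, and 8381 CPM in NZBWF1. NZB was lower there by 0.77 on the log2 scale (SE 0.20, edgeR adjusted p = 0.0384), which was lost in 8 of 20 alternatives (adjusted p of up to 0.600), including the leaving out of NZB-2, NZW-1, NZW-2, NZBWF1-2, or NZBWF1-3. The median difference of *Fth1* over the 16 classes was 0.11, against -0.01 for all genes.

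**Figure D4:**
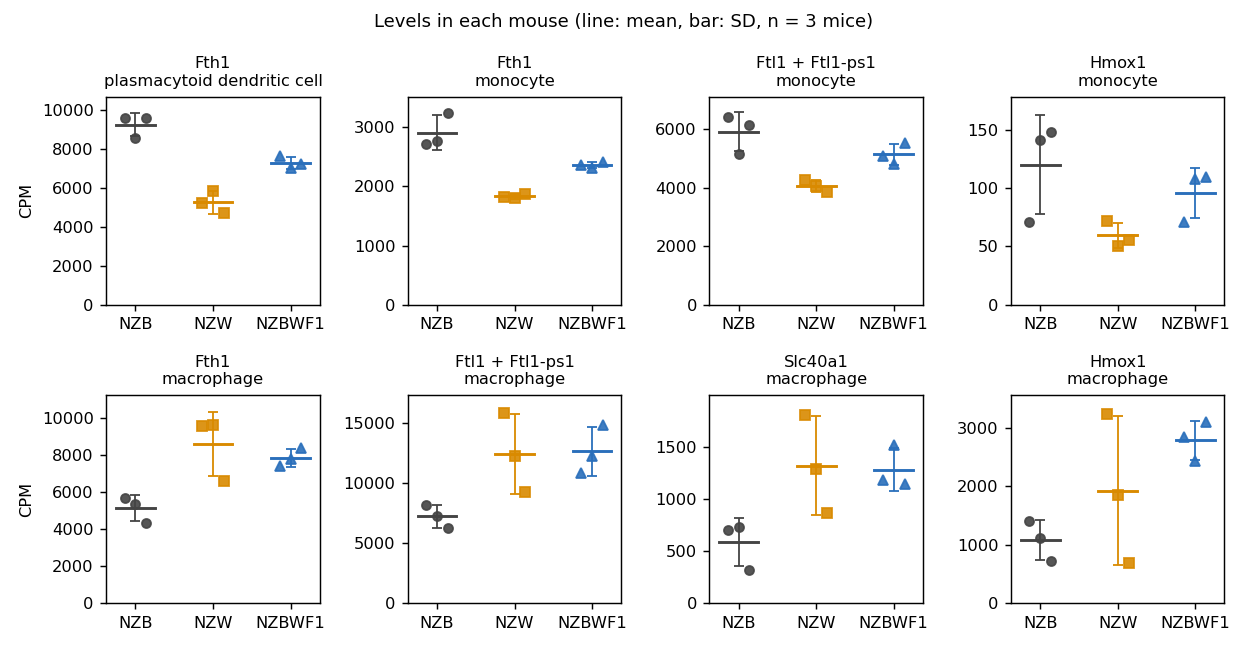
Levels in CPM of *Fth1*, the sum of *Ftl1* and *Ftl1-ps1*, *Slc40a1*, and *Hmox1* in selected classes, with 1 point per mouse, a line at the mean, and a bar of 1 SD (n = 3 mice per strain). In the panels of plasmacytoid dendritic cells (*Fth1*) and monocytes (*Fth1*, the sum, and *Hmox1*) the order of the means is NZB, NZBWF1, NZW, and in macrophages NZB has the lowest mean of each gene.

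Light chain UMIs, as the same sum, and heavy chain UMIs were also read against each other. The ratio of light to heavy chain UMIs, which compares counts and not protein, had class means from 0.270 (NZBWF1) to 0.286 (NZB) in plasmacytoid dendritic cells and from 0.257 (NZW) to 0.301 (NZBWF1) in erythroblasts. The monocyte ratio was 2.04 ± 0.283 for NZB, 2.21 ± 0.141 for NZW, and 2.18 ± 0.104 for NZBWF1 (SD over 3 mice of a strain). Plasma cells had the widest spread, from 1.75 in NZW to 3.40 in NZBWF1. There NZW rests on NZW-2 and NZW-3 (1.62 and 1.88), as NZW-1 had 6 plasma cells, and the NZBWF1 mice ran from 2.51 to 4.72. NZBWF1 against the parental mice gave an exact permutation p under 0.05 in 0 of 16 classes, the smallest being 0.0893 in plasma cells (adjusted 0.589). Such a permutation test cannot go below 0.0119 with 3 against 6 mice, nor below 0.1 with 3 against 3. Its limit is higher in classes with fewer mice, plasma cells (8 mice) among them. No difference of 3 against 3 mice could therefore pass, whatever its size, nor could a single class after adjustment over 16. These p-values do not show that the ratios were equal.

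*Tfrc*, the transferrin receptor, was highest in erythroblasts (531 CPM), above plasmacytoid dendritic cells (221 CPM) in 9 of 9 mice (mean log2 difference 1.23, SD 0.40, adjusted p = 0.0255, exact sign-flip permutation). Early erythroid cells (190 CPM), conventional dendritic cells (132 CPM), macrophages (85.7 CPM), and B-cell precursors (66.3 CPM) came next without a called step between them. B-cell precursors were above mature B cells (27.3 CPM) in 9 of 9 mice. In basophils or mast cells 0 UMIs of *Tfrc* were counted, which allows up to 43.2 CPM in NZB, 34.7 CPM in NZW, and 44.2 CPM in NZBWF1 (3 UMIs over the strain). The erythroblast values were 511, 691, and 616 CPM in NZB, 498, 429, and 615 CPM in NZW, and 505, 427, and 488 CPM in NZBWF1, so that NZW overlapped both other strains and the lowest NZB mouse lay just above the highest NZBWF1 mouse. In no strain comparison did edgeR call *Tfrc* in any of the 9 or 10 classes tested, with between 1 and 3 classes at an unadjusted p under 0.05 per comparison and 0 calls by DESeq2.

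*Slc11a1*, the phagosome transporter, was read mainly in phagocytes and neutrophils. Its mean was 114 CPM in macrophages, 47.1 CPM in mature neutrophils, 32.7 CPM in monocytes, and 6.61 CPM in immature neutrophils, and lower still in the other 12 classes. In monocytes it read 48.8, 31.8, and 41.9 CPM in NZB, 22.9, 29.8, and 21.1 CPM in NZW, and 36.5, 29.0, and 32.6 CPM in NZBWF1. The lowest NZB mouse was above the highest NZW mouse (0.67 ± 0.20, edgeR adjusted p = 0.0140), and the call was lost by DESeq2 and without NZB-1 or NZW-3 (adjusted p of up to 0.0870).

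*Slc25a37*, mitoferrin 1, stood apart in erythroblasts, with 466 CPM against 52.5 CPM in early erythroid cells, higher in 9 of 9 mice (mean log2 difference 2.93, SD 0.33, adjusted p = 0.0255, exact sign-flip permutation). Early erythroid cells were not called above the next class, mature B cells (43.9 CPM, lower than early erythroid cells in 5 of 9 mice, exact permutation p = 0.398), and macrophages followed with 41.9 CPM. Erythroblasts held 310, 610, and 575 CPM in NZB, 485, 420.1, and 546 CPM in NZW, and 465, 405, and 380.2 CPM in NZBWF1, so the strains overlapped. edgeR called it in 0 of 8 classes in every strain comparison, with at most 2 classes at an unadjusted p under 0.05 and 0 calls by DESeq2. Early erythroid cells had the smallest p, with NZBWF1 lower than NZB by 0.58 on the log2 scale (SE 0.17, edgeR adjusted p = 0.0774).

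*Hmox1*, haem oxygenase 1, stood at 1928 CPM in macrophages, far above monocytes at 92.0 CPM (9 of 9 mice, mean log2 difference 4.11, SD 1.07, adjusted p = 0.0255, exact sign-flip permutation). Mature neutrophils followed at 72.8 CPM and were above immature neutrophils at 41.3 CPM in 9 of 9 mice. Of macrophages, 74.7% held a UMI of *Hmox1* (58.4% thinned to 1000 UMIs, median 2200.0 UMIs), against 0.817% of T cells (0.654% thinned, median 1335.0 UMIs). Macrophage levels varied widely between mice, with 1399.6, 1113, and 718 CPM in NZB, 3229, 1851, and 676 CPM in NZW, and 2844, 2428, and 3090.2 CPM in NZBWF1. All 3 NZBWF1 mice were above all NZB mice, and the NZW mice spanned the whole range. edgeR called *Hmox1* in macrophages in 0 strain comparisons, with NZBWF1 against NZB at 1.32 ± 0.51 (edgeR, unadjusted p = 0.0337, adjusted p = 0.376).

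Outside macrophages *Hmox1* was the member besides the light chain pair with most calls that involved the hybrid. NZBWF1 exceeded NZW in erythroblasts (2.69 ± 0.52, edgeR adjusted p = 0.000466), early erythroid cells (2.35 ± 0.46, edgeR adjusted p = 0.00195), GMP or promyelocytes (1.41 ± 0.27, edgeR adjusted p = 0.000666), and mature neutrophils (1.17 ± 0.23, edgeR adjusted p = 0.0254). It exceeded NZB in GMP or promyelocytes (0.98 ± 0.24, edgeR adjusted p = 0.0126), where the values were 21.7, 13.8, and 17.3 CPM in NZB, 9.31, 16.1, and 8.88 CPM in NZW, and 26.2, 23.8, and 46.2 CPM in NZBWF1. Each hybrid mouse was above each parental mouse in that class. The hybrid was called above the mean of the parents' logs there (1.20 ± 0.21, edgeR adjusted p = 0.000633) and in early erythroid cells (1.74 ± 0.37, edgeR adjusted p = 0.00923), and above the arithmetic mid-parent in the same classes (1.21 ± 0.22 and 1.67 ± 0.35, edgeR adjusted p = 0.00571 and 0.0174).

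These *Hmox1* calls rested in part on single mice and on settings. At 5% mitochondrial UMIs all 4 calls of the hybrid in GMP or promyelocytes were lost. With 1 more marker per class those against NZB and the mid-parent in GMP or promyelocytes, and all 3 in early erythroid cells, were lost. Without NZBWF1-3 all calls of the hybrid in GMP or promyelocytes and in early erythroid cells were lost, with adjusted p of up to 0.995 over the alternatives against the mid-parent and 0.939 against the mean of logs. DESeq2 did not call the hybrid above the mid-parent in either class, above NZB in GMP or promyelocytes, or above the mean of logs in early erythroid cells. Leaving out any NZB or NZW mouse ended the call above the mid-parent in GMP or promyelocytes, as did NZB-2, NZB-3, NZW-2, NZW-3, or NZBWF1-2 in early erythroid cells. The call above NZB in GMP or promyelocytes was lost without NZB-2 or NZB-3 as well, and that above NZW in early erythroid cells without NZW-3 (adjusted p of up to 0.580 and 0.158). The call against NZW in erythroblasts was lost without NZBWF1-2 (adjusted p of up to 0.206), and that in mature neutrophils without NZB-3, NZW-2, NZW-3, or NZBWF1-3 and at 2000 UMIs and 1000 genes (up to 0.308). In early erythroid cells the levels were low, with 5.02 to 6.39 CPM in NZB, 0.471 to 4.14 CPM in NZW, and 5.94, 9.21, and 17.6 CPM in NZBWF1. These rest on 27 UMIs in NZB, 13 in NZW, and 56 in NZBWF1.

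Between the parents *Hmox1* was higher in NZB in erythroblasts (2.87 ± 0.53, edgeR adjusted p = 4.71e-05), in monocytes (1.10 ± 0.26, edgeR adjusted p = 0.0131), and in mature neutrophils (1.09 ± 0.24, edgeR adjusted p = 0.00671). Erythroblasts held 31.0, 24.8, and 46.9 CPM in NZB, 7.01, 4.26, and 3.49 CPM in NZW, and 11.0, 32.0, and 57.0 CPM in NZBWF1, so NZW was lowest without overlap. That call held under every alternative in which the gene was tested in the class. It rests on few UMIs, with a UMI of *Hmox1* in 2.43% of 411 NZW, 11.3% of 159 NZB, and 12.3% of 154 NZBWF1 erythroblasts. In monocytes the values were 71.2, 142, and 148 CPM in NZB and 71.8, 50.7, and 55.8 CPM in NZW, which overlap, and the call was lost without NZB-2 or NZW-3 (adjusted p of up to 0.0763). In mature neutrophils it was lost without NZW-3 (0.0505).

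Macrophage markers moved with some of these differences and not with others. The summed CPM of 13 macrophage markers in erythroblasts was 64.4 to 99.7 in NZB, 10.5 to 22.0 in NZW, and 29.3 to 108 in NZBWF1, with *Mertk*, *Siglec1*, and *Folr2* at 0. Early erythroid cells held 9.59 to 21.4, 4.29 to 8.01, and 21.6 to 37.3 CPM of these markers in the same order, with all 13 detected. In GMP or promyelocytes the sums were 57.2 to 69.1, 86.2 to 110, and 92.1 to 135 CPM, with *Folr2* at 0. Mature neutrophils held 40.7 to 81.5, 47.2 to 79.5, and 101 to 150 CPM, with all 13 detected, and monocytes 108 to 127, 115 to 150, and 175 to 206 CPM, with *Folr2* at 0. In both of these classes the marker sums of NZB and NZW overlapped, while *Hmox1* was called higher in NZB. In GMP or promyelocytes *Vcam1* alone gave 638 UMIs over all mice, where the sums were 317, 448, and 460 UMIs in NZB, NZW, and NZBWF1. In monocytes *Adgre1* alone gave 876 UMIs, where the sums were 390, 619, and 695 UMIs. *C1qa* was the strongest marker in the other classes named. Since macrophages held by far the highest *Hmox1* level, these values are given beside the calls, and their part in them was not tested.

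*Blvrb*, biliverdin reductase B, was highest in erythroblasts, at 2530 CPM, with 1343 CPM in early erythroid cells, 527 CPM in macrophages, and 147 CPM in mature B cells, and each of these steps was called (adjusted p = 0.0255, exact sign-flip permutation, 9 of 9 mice each). Early erythroid cells held 1513, 1514, and 1521 CPM in NZB, 1312, 1161, and 1201 CPM in NZW, and 1297, 1259, and 1309 CPM in NZBWF1. NZB was above both other strains without overlap, and its difference from NZW was called (0.35 ± 0.09, edgeR adjusted p = 0.00975). The call was lost at 5% mitochondrial UMIs, where the difference was 0.03, and without NZW-2 or NZW-3 (adjusted p of up to 0.956). In mature neutrophils the values were 45.6, 41.6, and 37.9 CPM in NZB, 88.2, 106, and 84.2 CPM in NZW, and 61.8, 63.9, and 98.3 CPM in NZBWF1 (NZB lower by 0.86 on the log2 scale, SE 0.21, edgeR adjusted p = 0.0151). At limits of 2000 UMIs and 1000 genes this difference turned to 0.53 in the other direction, and without NZB-2 or NZB-3 it was not called. Erythroblast markers summed to 5.26 to 7.57 CPM in NZB and 9.48 to 18.5 CPM in NZW in that class, and their part was not tested.

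*Slc40a1*, ferroportin, stood at 1059 CPM in macrophages, above mature neutrophils at 89.2 CPM in 9 of 9 mice (mean log2 difference 3.31, SD 0.75, adjusted p = 0.0255, exact sign-flip permutation). Mature neutrophils were above immature neutrophils (59.8 CPM) in 9 of 9, and erythroblasts (56.0 CPM) and early erythroid cells (54.4 CPM) came next. Monocytes held 5.03 CPM. A UMI of *Slc40a1* was found in 68.7% of macrophages (49.8% thinned), 16.9% of mature neutrophils (9.20% thinned), and 42.4% of early erythroid cells (5.51% thinned, median 10458.0 UMIs), against 0.163% of T cells (0% thinned). Macrophages held 700, 729, and 319 CPM in NZB, 1809, 1283, and 859 CPM in NZW, and 1179, 1516, and 1138 CPM in NZBWF1. All NZB mice were below all others, and NZB was called below NZW (fell by 1.17 on the log2 scale, SE 0.31, edgeR adjusted p = 0.0418).

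That *Slc40a1* call was lost in 6 of 20 alternatives (adjusted p of up to 0.576), with 1 more marker per gate, at 5% mitochondrial UMIs, and without NZB-3, NZW-1, NZW-2, or NZBWF1-3. NZB was also below NZW in GMP or promyelocytes (fell by 0.85, SE 0.28, edgeR adjusted p = 0.0478), with 9.66, 16.8, and 13.2 CPM against 25.6, 26.8, and 19.0 CPM and no overlap. This was lost in 9 of 20 alternatives, DESeq2, other size factors, and the subtraction of free RNA among them, and without NZB-1, NZB-3, NZBWF1-2, or any NZW mouse (adjusted p of up to 0.206). In monocytes NZBWF1 exceeded the arithmetic mid-parent (1.76 ± 0.44, edgeR adjusted p = 0.0144), on 33 UMIs against 11 in NZB and 12 in NZW, and the call was lost without NZB-2, NZW-2, NZBWF1-2, or NZBWF1-3 (up to 0.336). The macrophage marker sums given above for GMP or promyelocytes and for monocytes moved with both of these *Slc40a1* calls, lower in NZB than in NZW in the former and highest in NZBWF1 in the latter, and their part was not tested.

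*Ireb2*, the regulator, ran from 61.4 CPM in mature B cells and 54.7 CPM in B-cell precursors to 18.5 CPM in immature neutrophils and 13.9 CPM in plasma cells. None of its 15 steps between neighbours in this order was called. edgeR called it in 0 of 9 classes in every strain comparison, with 0 at an unadjusted p under 0.05 and 0 by DESeq2. A missed threshold does not show that the strains had equal levels.

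Without the light chain pair, the members were called in 14 of 71 tests between the parents (10 higher and 4 lower in NZB), 3 against NZB, 5 against NZW, 2 against the mean of the parents' logs, and 3 against the mid-parent. These are 19.7%, 4.23%, 7.04%, 2.82%, and 4.23% of the tests. Over all genes the shares higher and lower were 4.25% and 4.31%, 1.93% and 2.03%, 0.567% and 0.436%, 0.471% and 0.22%, and 0.151% and 0.298% in the same order, and nothing particular to the members is read from these counts. Their median log2 difference between the parents was 0.04, against -0.01 for all genes. Whether a strain difference itself differed between classes was tested with limma for macrophages against monocytes, erythroblasts against B-cell precursors, and mature against immature neutrophils. Of 28 member tests per comparison, 0 were called, with 10 at an unadjusted p under 0.05 for NZB against NZW, 3 for NZBWF1 against NZB, and 1 each for NZBWF1 against NZW and for the hybrid set against the parental mean of logs (limma, no other tool run). Over all genes the calls were 0.468%, 0.0129%, 0.0215%, and 0.0% in the same order. The opposite directions of *Fth1* in macrophages and monocytes gave a class difference of -1.39 ± 0.48 (limma adjusted p = 0.601), with an unadjusted p of 0.0133 that did not pass the adjustment over all genes.

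Dividing cells, with at least 2 of 13 division genes detected, were set against cells with none within 5 classes, because *Tfrc* is known to rise in cells that divide. Of 50 tests 20 were called, 2 higher and 18 lower in dividing cells (exact sign-flip permutation over mice, two-sided). The test was not run over all genes, so no share over all genes stands beside these counts. Whether most genes were lower in dividing cells is not known, and nothing particular to the members is read from the counts. *Tfrc* was higher in dividing immature neutrophils, 13.6 ± 3.55 CPM against 4.14 ± 1.53 CPM (SD, n = 9 mice), in 9 of 9 mice (mean log2 difference 0.73, adjusted p = 0.0195, exact permutation). In mature neutrophils it was 31.9 ± 15.3 CPM against 7.37 ± 4.50 CPM and higher in 8 of 8 mice (1.24, adjusted p = 0.0206, exact permutation). The mature neutrophil values rest on 31 UMIs of *Tfrc* in dividing and 48 in non-dividing cells, with 14 to 60 dividing cells per mouse. Whether these dividing cells were rightly gated was not tested. Monocytes (15.1 against 8.80 CPM), plasmacytoid dendritic cells (291 against 199 CPM), and B-cell precursors (71.1 against 52.4 CPM) had higher means in dividing cells without passing the threshold (adjusted p = 0.0594, 0.108, and 0.0651, exact permutation).

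*Fth1* was lower in dividing cells in 4 of 5 classes and in every mouse of all 5. Monocytes held 1968 CPM when dividing against 3025 CPM, and immature neutrophils 892 against 1273 CPM. Plasmacytoid dendritic cells held 3480 against 8351 CPM, lower in 6 of 6 mice, which did not pass the threshold (adjusted p = 0.0601, exact permutation, where 6 mice can give no unadjusted p below 0.0312). *Ftl1* and *Ftl1-ps1* were lower in 3 classes each, *Slc11a1* in 3, *Slc40a1* in 2, and *Slc25a37*, *Hmox1*, and *Blvrb* in 1 each, while *Ireb2* was called in 0 (1 at an unadjusted p under 0.05, exact permutation, no other test run). In *Slc11a1* the difference in monocytes was 18.9 against 55.7 CPM. At limits of 2000 UMIs and 1000 genes, fewer mice had enough cells and 5 of these tests were called.

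**Figure D5:**
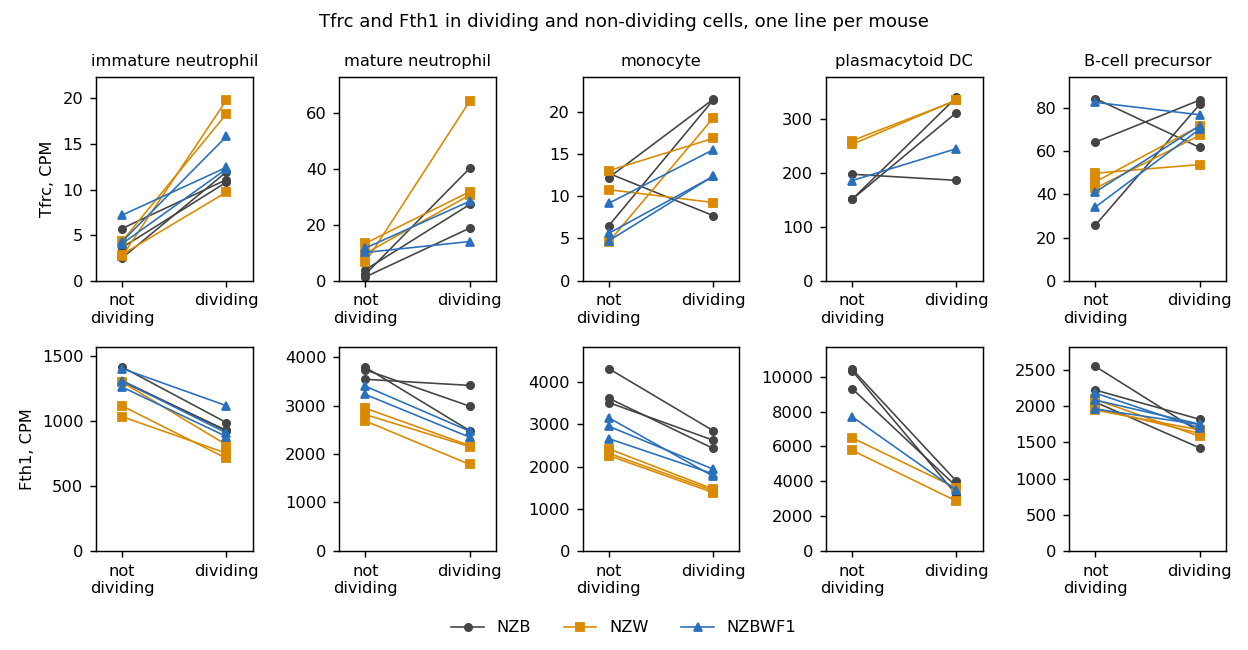
Levels in CPM of *Tfrc* (upper row) and *Fth1* (lower row) in cells without and with division genes, for 5 classes, with 1 line per mouse and colours for the strains. *Tfrc* lines rise in every mouse in immature and mature neutrophils, and *Fth1* lines fall in every mouse in all 5 classes.

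Other genes of iron handling were taken from 6 lists of 49 genes, of which 42 were tested in at least 1 class. Between NZB and NZW, 20 of their 297 tests were called higher in NZB and 16 lower (12.1% in all, with a median of -0.01), beside the 4.25% higher and 4.31% lower over all genes given above. Nothing particular to the lists is read from these counts. By list the calls were 9 of 36 tests for uptake and endosome, 12 of 54 for chaperones, ferritin turnover, and export, 6 of 30 for NRF2 targets, 6 of 52 for regulators, 3 of 84 for mitochondrial iron and clusters, and 0 of 41 for haem transport and degradation (edgeR, with 5 at an unadjusted p under 0.05). Genes called in at least 3 classes were *Pcbp2*, *Gclm*, *Hp*, and *Lcn2*. *Pcbp2*, a chaperone that hands iron to ferritin, was lower in NZB in 8 of 15 classes, by 0.34 to 0.97 on the log2 scale, with 300.1 ± 48.0 CPM in NZB, 465 ± 21.4 CPM in NZW, and 372 ± 7.53 CPM in NZBWF1 monocytes (SD, n = 3 mice each). *Gclm*, a subunit of the enzyme that starts glutathione synthesis, was higher in NZB in 4 classes of the granulocyte and monocyte line (0.68 to 1.54), at 79.9 ± 14.4 CPM in monocytes against 28.4 ± 1.28 CPM in NZW and 32.8 ± 7.94 CPM in NZBWF1.

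*Hp* (haptoglobin, which binds free haemoglobin) was higher in NZB in the same 4 classes (0.45 to 1.19), and *Lcn2* (lipocalin 2, which binds iron-carrying siderophores) in 3 of them (0.68 to 2.18). In monocytes *Hp* stood at 1352 ± 231 CPM in NZB, 599 ± 113 CPM in NZW, and 705 ± 42.4 CPM in NZBWF1. *Lcn2* in monocytes was 323 ± 128 CPM in NZB against 73.9 ± 17.2 CPM in NZW (edgeR adjusted p = 0.0188), with 78.5 ± 50.3 CPM in NZBWF1. Mature neutrophils held 24462 CPM of it in NZB, 14363 CPM in NZW, and 13973 CPM in NZBWF1. For *Gclm*, *Hp*, and *Lcn2* the mean of the hybrid lay closer to NZW than to NZB in the classes called.

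Over 142 sums of a class and a mouse, centred within class, the genes of 14427 compared whose levels followed *Ftl1-ps1* most closely were *H2-T23* (Pearson r = 0.86), *Rpl21* (0.85), and *Rps2* (0.84). Each had its lowest values in NZB and its highest in NZW, for *Rpl21* 1007 to 1094 CPM against 1989 to 2235 CPM over all classed cells. Such pooled values also depend on the make-up of the classes. The points share libraries, so these values are descriptions. Over 16 class means the genes most like *Slc40a1* were *Gm37748* (0.89), *Ibsp* (0.89), and *Awat1* (0.88), at means of 1.03, 15.6, and 2.85 CPM in macrophages, which makes them a description of sparse counts.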

How the data were processed

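The authors deposited whole UMI counts per gene and barcode, without normalization, made with Cell Ranger 3.1.0 from 10x 3′ v3.1 libraries on build mm10 and merged over the 9 libraries. The annotation, and whether reads were thinned on merging, are not given in the sources used here. Barcode suffixes were matched to mice by the order of the deposited list of libraries. The members, gene lists, and classes were chosen with earlier results of these data known, and the number of markers asked of a macrophage was set after marker counts had been seen. Cells with markers of more than 1 lineage were put in no class, and no doublet caller was run. UMI sums of each class in each mouse entered edgeR 4.0.16 (filterByExpr, TMM, robust quasi-likelihood, all strains in 1 fit), with Benjamini-Hochberg adjusted p under 0.05 within a class called and the SE taken as the log2 fold change over the square root of F. DESeq2 1.42.0 and other settings served as alternatives. Whether a strain difference differed between classes was tested with limma 3.58.1 on differences of log2(CPM + 10) within mice. Steps between classes, and dividing against non-dividing cells, were tested by exact sign-flip permutation over mice. That permutation cannot go below p = 0.0039 with 9 mice. The edgeR and limma steps were tested on simulated data. Named are all members, list genes called in at least 3 classes, and the 3 genes most like *Ftl1-ps1* and *Slc40a1*. Python 3.11.15 and R 4.3.3 were used.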

Additional observations from a re-analysis of the deposited data

How the results depend on the processing

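The alternatives for the sum of *Ftl1* and *Ftl1-ps1*, and the leaving out of mice for class differences, were chosen after seeing the data. Of 122 calls of *Ftl1* or *Ftl1-ps1*, 102 held under every alternative in which the gene was tested in the class. The same was true of 2 of 27 for the other members and 2 of 9 for the sum. Alternatives in which a gene had too few counts to be tested are not counted here, so these calls were not tried under all of them. *Blvrb* in mature neutrophils reversed to 0.53 between the parents at 2000 UMIs and 1000 genes. A minimum of 10 counts in every mouse leaves fewer genes to test, and members called became 14 against the mean of the parents' logs (34 otherwise), 27 between the parents (46), 16 against NZB (31), 14 against NZW (33), and 2 against the mid-parent (5). With the pair replaced by its sum the counts were 2 against the mean of logs and 19 between the parents. Against the mid-parent they were 0 with 1 more marker per class, 0 by DESeq2, 0 at 5% mitochondrial UMIs, 2 at 2000 UMIs, 2 and 4 with the other 2 pairings of parents, and 3 without the 5% of cells richest in UMIs. At 2000 UMIs the sum had 3 calls (5 otherwise), class steps 0 (28 otherwise), dividing cells 5 (20), and the ratio 1 (0), while 1 more marker gave 17 class steps. The cause of these shifts was not tested. Leaving out each mouse gave 31 to 35 calls against the mean of logs, 28 to 32 against NZB, 40 to 47 between the parents, 27 to 35 against NZW, 0 to 7 against the mid-parent, 3 to 7 for the sum, 24 to 42 for the iron lists, 0 to 26 class steps, 19 to 22 for dividing cells, 0 to 2 for the ratio, and 0 for class differences. The count of class steps was 26 without NZB-1 and 0 without any other mouse.

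With the replicate number as a block, the members had 35 calls each against the mean of logs and against NZB, 34 against NZW, and 46 between NZB and NZW, with 5 for the sum and 39 for the iron lists. The numbers were not taken to pair the mice: 1 of 9 same-number pairs correlated above 0.1 (-0.0138 to 0.141, over 13 classes), although 8 of 9 mice correlated best with their own number, a hint from the data and not from the labels. The block ended the calls of *Fth1* and of the sum in macrophages between the parents and of the sum in GMP or promyelocytes against NZB and no other call of the members in these comparisons. It was not run against the mid-parent.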
